A study of Mus musculus with 18 samples.

Results

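The genes described here encode the enzymes that hydroxylate and cross-link collagen: 5 lysyl oxidases (Lox, Loxl1, Loxl2, Loxl3 and Loxl4), 3 lysyl hydroxylases (Plod1, Plod2 and Plod3) and 2 catalytic subunits of prolyl 4-hydroxylase (P4ha1 and P4ha2). They were taken by gene symbol, each matched 1 gene, and they are 10 of the 30452 genes in the table. All came from MC3T3-E1, an established line of mouse calvarial pre-osteoblasts, seeded at 20000 cells per well on 15 mm membrane discs and collected after 5 days. The membranes were PLLA/ZnO@Col, which bears collagen, PLLA/ZnO, which holds zinc oxide, and PLLA alone, a degradable polyester that all groups share. Each was given ultrasound for 10 min daily (+US) or no ultrasound (-US), so that there were 6 groups of 3 libraries of polyadenylated RNA. The series asks whether such piezoelectric membranes aid bone repair. Nothing in the labels states that replicates were separate cultures, so every p-value below covers only the spread between these libraries, which may be technical.

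Collagen chains are modified in the endoplasmic reticulum before they fold. Prolyl 4-hydroxylase, a tetramer of catalytic alpha subunits with P4hb, hydroxylates proline and so stabilises the triple helix, and lysyl hydroxylases hydroxylate lysine. After secretion, lysyl oxidases oxidise lysine and hydroxylysine to aldehydes, from which the covalent cross-links of bone matrix form. All these enzymes need a metal (iron for the hydroxylases, copper for the oxidases). Some, among them Lox, Plod2, P4ha1 and P4ha2, are known targets of the hypoxia-inducible factor HIF in several cell types. Those named are examples and not a full list.

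Levels are FPKM, which are scaled to transcript length and so can be set side by side between genes; they are given per library or as mean ± SD with n = 3 per group. Changes are log2 fold changes from counts with their standard error (SE), and a gene is called at an adjusted p under 0.05 by edgeR over the 11936 genes that reached 1 FPKM in at least 3 libraries. Of the 10 enzymes, 9 passed that filter and Loxl2 did not.

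The osteoblast markers on the list were split between high and near-absent levels. Col1a1 lay between 500 and 1160 FPKM, Spp1 between 637 and 3610 FPKM and Runx2 between 6.22 and 9.54 FPKM, whereas Sp7, Alpl, Bglap and Ibsp stayed at or below 0.746 FPKM in all 18 libraries. Of the chondrocyte markers, Sox9 lay between 12.8 and 26.7 FPKM, and Col2a1, Acan and Col10a1 stayed at or below 0.9 FPKM. Summed endothelial and epithelial markers reached at most 0.256 and 0.231 FPKM. Libraries held 48307580 to 78039543 counts, and 7 of them stood apart in reads from the Y chromosome. In 3 libraries from the collagen membrane (replicate 1 of the +US group, replicates 1 and 3 of the -US group) Y-linked reads were 1.16% to 2.15% of the median of the PLLA -US libraries. In 4 libraries (PLLA/ZnO@Col +US replicates 2 and 3, PLLA/ZnO +US replicate 3 and PLLA +US replicate 3) they were 13.2% to 32.3% of it, and in the other 11 they were 56.2% to 106%. For the enzymes, results that rest on these libraries are given with and without them. The lists of HIF targets, partners and substrates below are given with all 18 libraries only. Leaving out the libraries that lacked Y-linked reads leaves 1 PLLA/ZnO@Col -US library. Leaving out those with reduced Y-linked reads leaves 1 PLLA/ZnO@Col +US library. That single library is then assumed to vary like the other groups.

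Lox was the leading lysyl oxidase and Loxl2 was close to absent. Lox (chromosome 18, 52516067 to 52529867), the founding member, which cross-links collagen and elastin, had a median of 136 FPKM over the 18 libraries, with a range of 50.5 to 271 FPKM. Loxl1 (chromosome 9, 58287738 to 58313186), known for its part in elastic fibre formation, had a median of 27.4 FPKM, and Loxl4 (chromosome 19, 42593982 to 42612813) had a median of 18.1 FPKM. Loxl3 (chromosome 6, 83034173 to 83052562) had a median of 14.2 FPKM. Loxl2 (chromosome 14, 69609068 to 69695834), which acts on collagen IV, lay between 0.0138 and 0.0981 FPKM, or 5 to 33 counts per library. As a share of the summed FPKM of the 5 genes, Lox held a median of 69.5%, with a range of 43.3% to 85.1%.

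Plod3 was the leading lysyl hydroxylase. Plod3 (chromosome 5, 136987019 to 136996648), which also glycosylates hydroxylysine, had a median of 37.8 FPKM, and its share of the family sum lay between 57.9% and 75.5%. Plod1 (chromosome 4, 147909753 to 147936767), which hydroxylates lysines of the triple helix, had a median of 10.8 FPKM. Plod2 (chromosome 9, 92542223 to 92608428), which hydroxylates telopeptide lysines and so directs the kind of cross-link formed, had a median of 8.26 FPKM. Its share of the family sum had the widest relative range of the 3, from 5.37% to 21.5%.

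P4ha1 exceeded P4ha2 in all 18 libraries. P4ha1 (chromosome 10, 59323296 to 59373304) had a median of 72.2 FPKM and P4ha2 (chromosome 11, 54100095 to 54131662) a median of 19.2 FPKM. P4ha1 held 74.4% to 84.6% of the sum of the pair. P4ha3, an alpha subunit counted here among the partner genes, had group means of 22 to 26.9 FPKM. P4hb, the beta subunit, had group means of 287 to 372 FPKM, and Serpinh1, the collagen chaperone, had 346 to 452 FPKM.

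**Figure D1:**
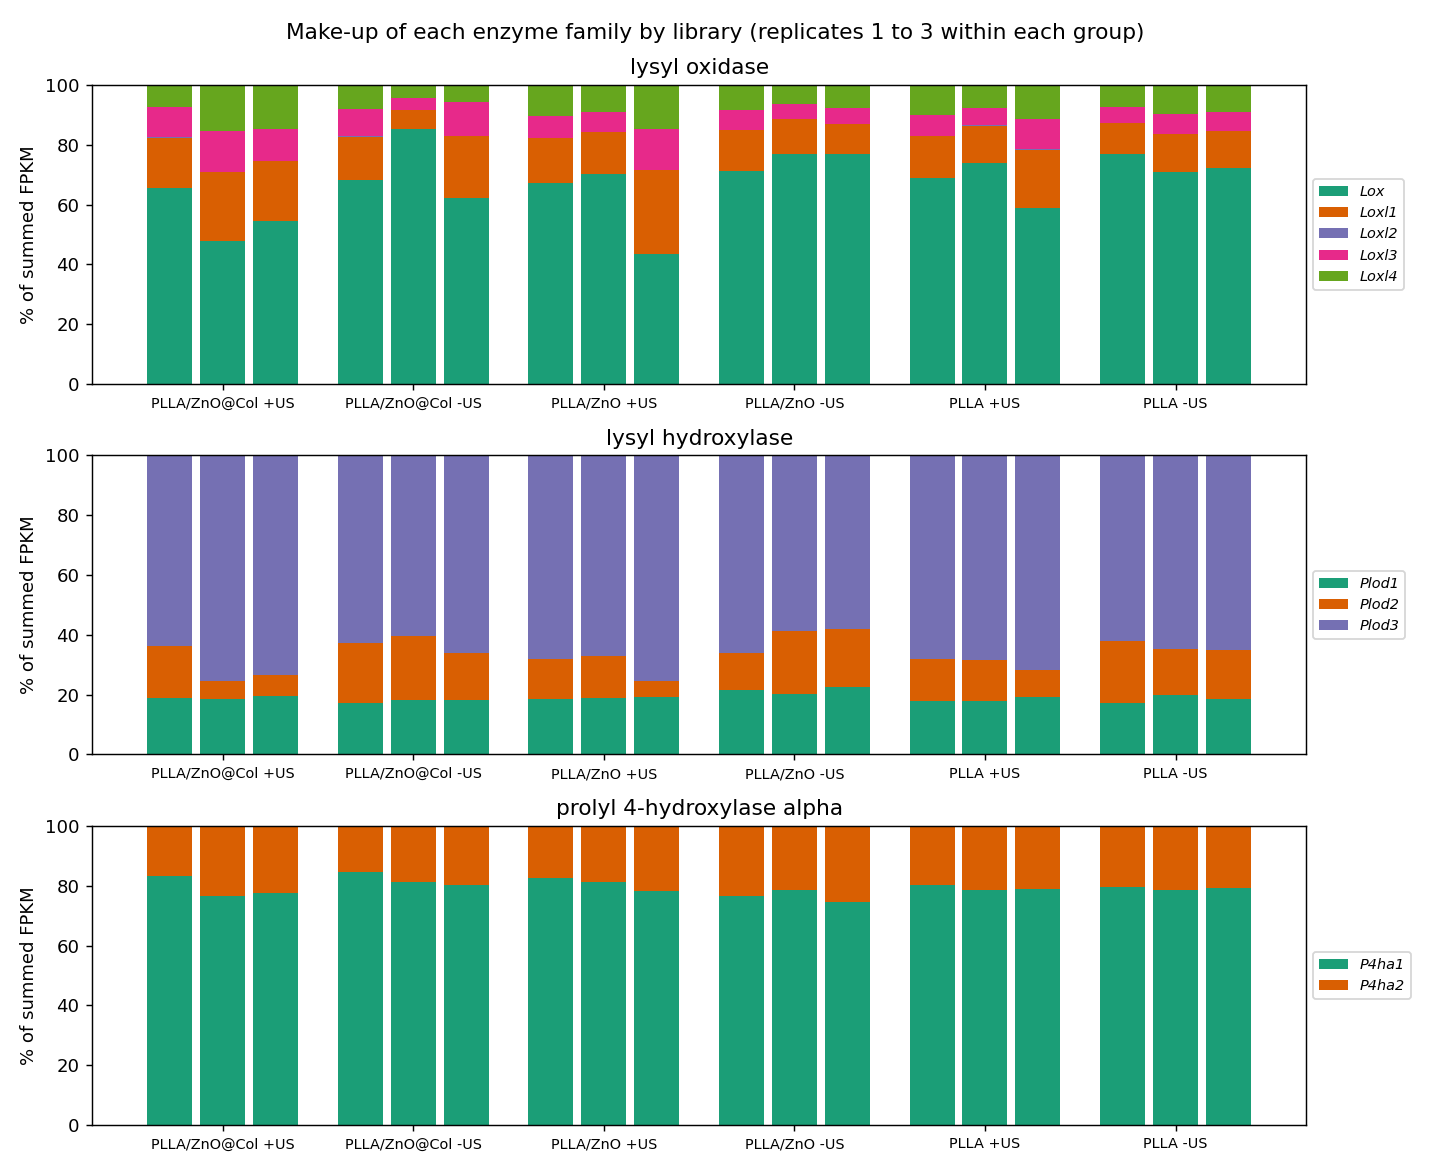
Share of each enzyme in the summed FPKM of its family (y axes, %), stacked for each of the 18 libraries (x axes, replicates 1 to 3 from left to right within a group). Lox takes 43.3% to 85.1% of the lysyl oxidase sum and Plod2 5.37% to 21.5% of the lysyl hydroxylase sum, while P4ha1 stays between 74.4% and 84.6% of the P4ha1 and P4ha2 sum.

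The enzymes differed in how much they varied. The highest library exceeded the lowest 5.38 times for Lox, 4.29 times for Plod2 and 3.05 times for Loxl4, against 1.59 times for Plod3 and 1.7 times for Loxl1. The SD of log2 FPKM over all 18 libraries was 0.59 for Lox, larger than that of 95.8% of the tested genes. It was 0.5 for Plod2, larger than that of 91.4%, and 0.2 for Plod3, larger than that of 30.2%. Most of this spread lay within groups: within groups the SD was 0.53 for Lox and 0.41 for Plod2. Ordered by mean level, the 10 genes gave 50 pairs of neighbouring groups, and in 3 of these the libraries of neighbouring groups did not overlap. Lox averaged 87 ± 16.7 FPKM in PLLA/ZnO@Col +US, 153 ± 103 in PLLA/ZnO@Col -US, 101 ± 44.4 in PLLA/ZnO +US, 176 ± 37.2 in PLLA/ZnO -US, 136 ± 28.8 in PLLA +US and 165 ± 20.8 in PLLA -US. Plod2 averaged 6.18 ± 3.95 FPKM in PLLA/ZnO@Col +US, 10.5 ± 1.06 in PLLA/ZnO@Col -US, 5.62 ± 2.07 in PLLA/ZnO +US, 10.8 ± 3.32 in PLLA/ZnO -US, 7.26 ± 0.836 in PLLA +US and 9.27 ± 0.874 in PLLA -US. Both genes thus had their 3 highest means in the groups without ultrasound, with overlap between most neighbours. The separate neighbours were PLLA/ZnO +US above PLLA/ZnO@Col -US for Loxl4, PLLA/ZnO -US above PLLA/ZnO@Col +US for P4ha2, and PLLA -US above PLLA +US for Plod2.

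**Figure D2:**
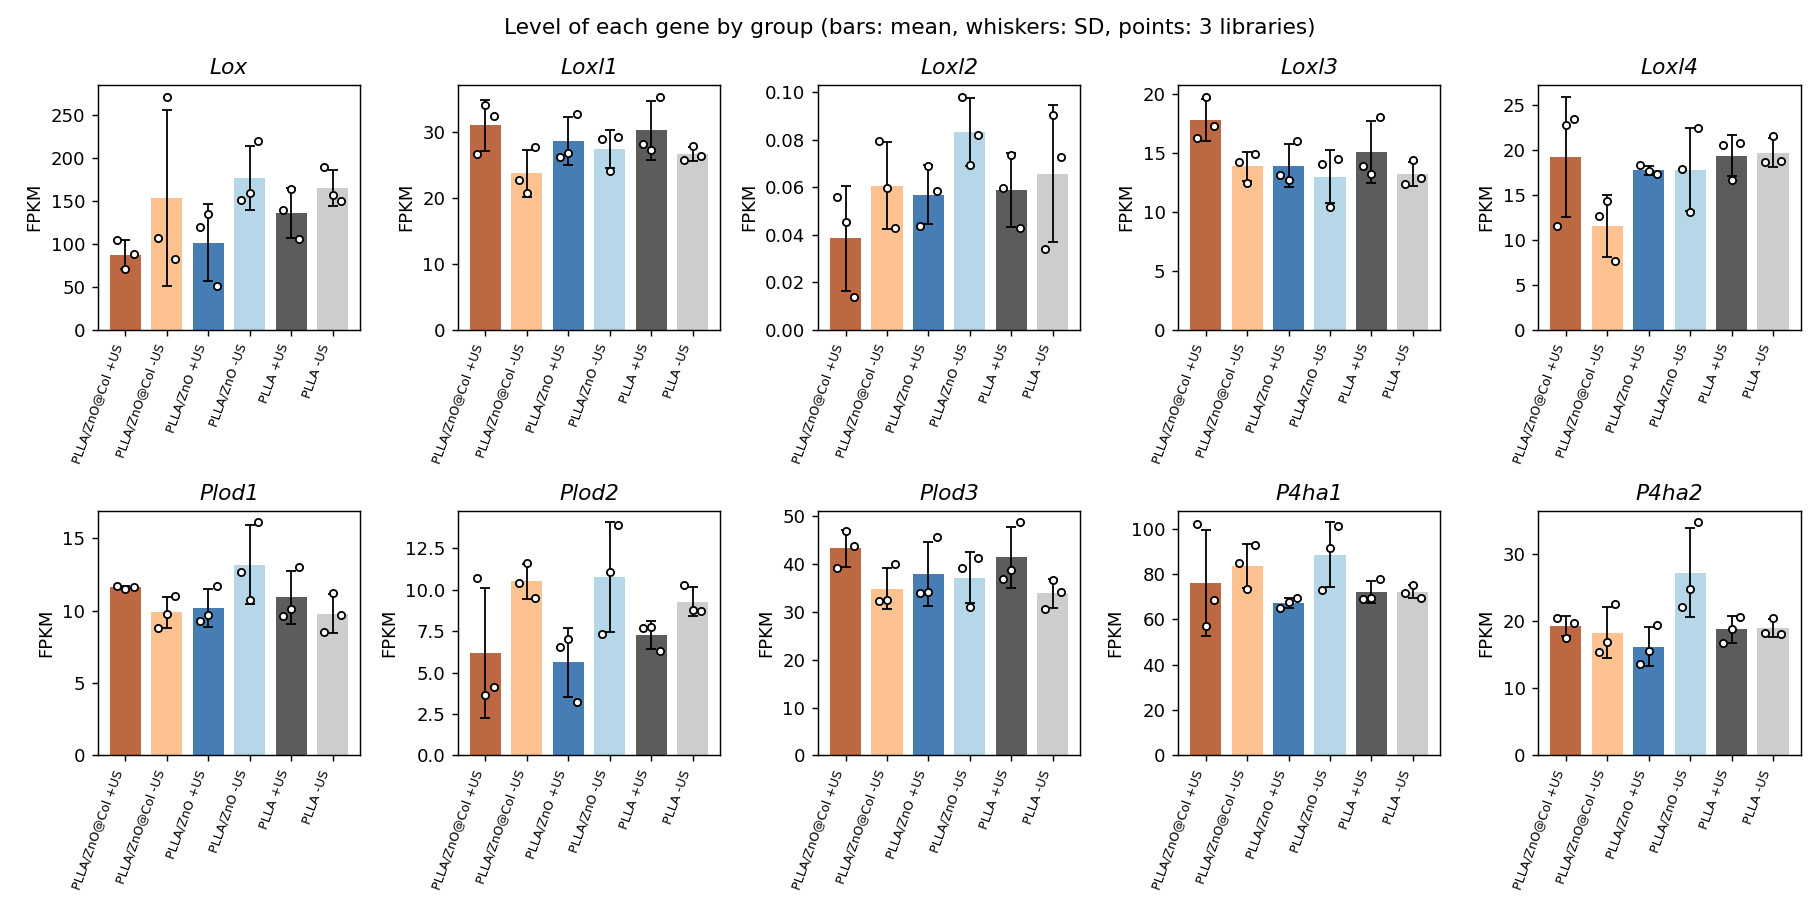
FPKM (y axes, linear and starting at 0, each gene on its own scale) of the 10 enzymes by group (x axes), with bars for group means, whiskers for SD and points for the 3 libraries. Lox spans 50.5 to 271 FPKM and Plod2 3.25 to 13.9 FPKM with wide spread inside groups, P4ha2 is highest in PLLA/ZnO -US, and Loxl2 stays at or below 0.0981 FPKM.

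On PLLA/ZnO, prolyl 4-hydroxylase subunits, Plod2 and Lox all lay lower with ultrasound than without, and none passed the test. P4ha2 had 13.7, 15.6 and 19.4 FPKM in PLLA/ZnO +US libraries, against 22.1, 24.9 and 34.8 FPKM in PLLA/ZnO -US libraries. Every library with ultrasound was below every library without it. The log2 fold change was -0.75 (SE 0.18, 95% interval -1.15 to -0.35), with an adjusted p of 0.937 by edgeR.

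P4ha1 lay lower by a smaller amount. Its levels were 65, 67.5 and 69.3 FPKM in PLLA/ZnO +US libraries, against 72.8, 91.4 and 101 FPKM in PLLA/ZnO -US libraries, and the groups did not overlap (log2 fold change -0.39, SE 0.18). Plod2 had 6.56, 7.05 and 3.25 FPKM in PLLA/ZnO +US libraries, against 7.32, 11.1 and 13.9 FPKM in PLLA/ZnO -US libraries. These groups did not overlap either, replicate 3 with ultrasound was the lowest Plod2 value of the series, and the log2 fold change was -0.93 (SE 0.37). Lox had 119, 134 and 50.5 FPKM in PLLA/ZnO +US libraries, against 151, 159 and 219 FPKM in PLLA/ZnO -US libraries. There too the groups did not overlap and replicate 3 with ultrasound was the lowest value of the series (log2 fold change -0.80, SE 0.40). Plod1 had 9.26, 9.67 and 11.7 FPKM in PLLA/ZnO +US libraries, against 12.7, 10.7 and 16.1 FPKM in PLLA/ZnO -US libraries, with overlap and a log2 fold change of -0.37 (SE 0.16). Loxl1, Loxl3, Loxl4 and Plod3 differed little, with log2 fold changes between -0.01 and 0.09.

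Of the 9 enzymes tested, edgeR called 0 for ultrasound on PLLA/ZnO, against 0% of all tested genes. At an unadjusted p under 0.05 it had 4 (P4ha2, P4ha1, Plod2 and Plod1), against 3.24% of tested genes. DESeq2 called 0 and limma on log2(FPKM + 1) called 0, while voom with library weights, a fit that lets each library count by its own spread, called P4ha2 and Plod1, where it called 4.76% of all genes. In 4 enzymes the libraries with ultrasound lay wholly below those without, against 4.62% of tested genes, and the median log2 fold change of the 9 was -0.37, against -0.03 over all genes tested. PLLA/ZnO +US replicate 3 had 13.2% of the expected Y-linked reads and the lowest mitochondrial share of the series, at 1.57% of counts. It weighed on Lox and Plod2, whose log2 fold changes without it were -0.48 and -0.66. Without PLLA/ZnO -US replicate 3 that of Plod1 was -0.20 and that of P4ha1 -0.28. With either library left out, P4ha2 stayed between -0.90 and -0.53. The part of these library properties in the differences was not tested.

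Promoter letters are shown for the pair of prolyl 4-hydroxylase subunits and Plod1, which lay lower together in that comparison, and for Plod3, which did not. RefSeq promoter windows, 250 bases upstream of the start on GRCm38.p6, were used for 5 of the 10 enzymes. No window was examined for Lox and Plod2, which also lay lower in that comparison, or for Loxl1, Loxl2 and Loxl3. The start is that of RefSeq, which for P4ha2 and Loxl4 lies inside the gene span given above from the table. Each is written 5′ to 3′ on the strand of its gene, and capitals mark the HIF core motif, ACGTG or GCGTG, on either strand.
P4ha1, chr10:59323046-59323295, plus strand: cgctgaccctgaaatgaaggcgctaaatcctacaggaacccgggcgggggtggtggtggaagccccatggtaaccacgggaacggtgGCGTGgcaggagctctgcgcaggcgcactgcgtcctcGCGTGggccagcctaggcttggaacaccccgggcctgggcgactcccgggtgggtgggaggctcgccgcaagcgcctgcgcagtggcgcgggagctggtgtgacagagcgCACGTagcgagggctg
P4ha2, chr11:54100674-54100923, plus strand: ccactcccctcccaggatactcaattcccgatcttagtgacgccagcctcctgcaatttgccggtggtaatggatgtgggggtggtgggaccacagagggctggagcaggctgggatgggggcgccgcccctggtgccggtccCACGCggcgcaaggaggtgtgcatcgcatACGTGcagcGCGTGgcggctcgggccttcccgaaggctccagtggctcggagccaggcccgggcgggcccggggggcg
Plod1, chr4:147936777-147937026, minus strand: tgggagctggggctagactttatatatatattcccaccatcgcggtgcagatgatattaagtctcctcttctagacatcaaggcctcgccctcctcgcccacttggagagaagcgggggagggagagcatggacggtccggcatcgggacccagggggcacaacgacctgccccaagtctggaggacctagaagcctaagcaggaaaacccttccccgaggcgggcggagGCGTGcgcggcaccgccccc
Plod3, chr5:136986769-136987018, plus strand: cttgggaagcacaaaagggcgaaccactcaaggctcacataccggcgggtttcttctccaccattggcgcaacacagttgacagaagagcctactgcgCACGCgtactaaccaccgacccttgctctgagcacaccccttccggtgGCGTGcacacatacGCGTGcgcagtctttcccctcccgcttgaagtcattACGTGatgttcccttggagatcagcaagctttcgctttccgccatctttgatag
P4ha1 and P4ha2 had 3 matches each and Plod1 had 1, whose nearest matches to the start were at -16, -69 and -20 bases. Plod3, at 0.02 on PLLA/ZnO, had 4, the nearest at -54. The window of Loxl4 had 1, at -162. At least 1 match was found in 38.6% of 32851 mouse promoter windows of this length, and 3 or more in 6.58%. The windows of the enzymes held 55.6% to 76.0% G and C, against a median of 52.4%, and among windows at least as rich as the lowest of them 58.8% held at least 1 and 13.3% held 3 or more. Such a match is a description of the letters, and binding was not measured.

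The 15 tested genes of a list of HIF targets lay lower with ultrasound on PLLA/ZnO without exception. Of all tested genes 53.7% were lower. edgeR called 0 of the 15, against 0% of tested genes, and 9 had an unadjusted p under 0.05, against 3.24%. In 11 the libraries with ultrasound lay wholly below those without, against 4.62% of tested genes. The median log2 fold change was -0.63, against -0.03 over all genes tested. DESeq2 called 3 of the 15, where it called 5 of 11936 genes in all, and limma called 0. The fit by voom with library weights called 11, where it called 4.76% of all genes. Bnip3, a mitophagy receptor induced by hypoxia, had 28.8, 35.3 and 28.8 FPKM in PLLA/ZnO +US libraries, against 50.7, 71.6 and 86.9 FPKM in PLLA/ZnO -US libraries (log2 fold change -1.17, SE 0.24). Pdk1, the kinase that restrains pyruvate dehydrogenase, was at -0.88 (SE 0.18) and Ak4, a mitochondrial adenylate kinase, at -0.63 (SE 0.14), all with an adjusted p of 0.937 by edgeR. With ultrasound on the other membranes the list shifted less. On PLLA 10 of 15 were lower (median -0.08, against 0 over all genes), and on PLLA/ZnO@Col 11 (median -0.12, against -0.03). In both, 0 had an unadjusted p under 0.05 by edgeR, against 0.436% and 8.18% of tested genes. For collagen without ultrasound, which also uses the PLLA/ZnO -US libraries, 13 of 15 were lower, against 45% (median -0.41, against 0.04). The list, like the enzymes, was chosen with earlier results of these libraries known.

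Zinc oxide without ultrasound was compared through the same PLLA/ZnO -US libraries, so its values are not independent of those above. P4ha2 had 22.1, 24.9 and 34.8 FPKM in PLLA/ZnO -US libraries, against 18.3, 20.5 and 18.1 FPKM in PLLA -US libraries. Every zinc oxide library exceeded every PLLA library, and the log2 fold change was 0.54 (SE 0.18, adjusted p = 1 by edgeR). Plod1 had 12.7, 10.7 and 16.1 FPKM in PLLA/ZnO -US libraries, against 8.49, 11.2 and 9.7 FPKM in PLLA -US libraries, with overlap and a log2 fold change of 0.44 (SE 0.16, adjusted p = 1 by edgeR). Both rested in part on PLLA/ZnO -US replicate 3: without it they were 0.31 for P4ha2 and 0.27 for Plod1. P4ha1 was at 0.30 (SE 0.18), and the other 6 lay between -0.13 and 0.23. In all 7 of 9 were higher, against 48.9% of tested genes, and 1 had separate groups with zinc oxide higher, against 7.61%. edgeR called 0 of the 9, against 0% of all genes, and 2 had an unadjusted p under 0.05, against 1.19%. DESeq2 and limma called 0, and voom with library weights called P4ha2, Plod1 and Plod3, where it called 9.99% of genes. Of the HIF targets, 14 of 15 were higher on PLLA/ZnO -US, against 48.9% of tested genes, with a median of 0.43. In 10 of the 15 the groups were separate with zinc oxide higher, against 7.61% of tested genes. edgeR, DESeq2 and limma called 0 of the 15, and voom with library weights called 9, where it called 9.99% of genes. By edgeR 8 had an unadjusted p under 0.05, against 1.19%. Car9, a membrane carbonic anhydrase, was at 1.46 (SE 0.44) and Higd1a, a mitochondrial inner membrane protein, at 0.73 (SE 0.24), with an adjusted p of 1 by edgeR. Car9 spread widely, from 6.34 to 21 FPKM in PLLA/ZnO -US libraries, against 4.15 to 4.48 FPKM in PLLA -US libraries.

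**Figure D3:**
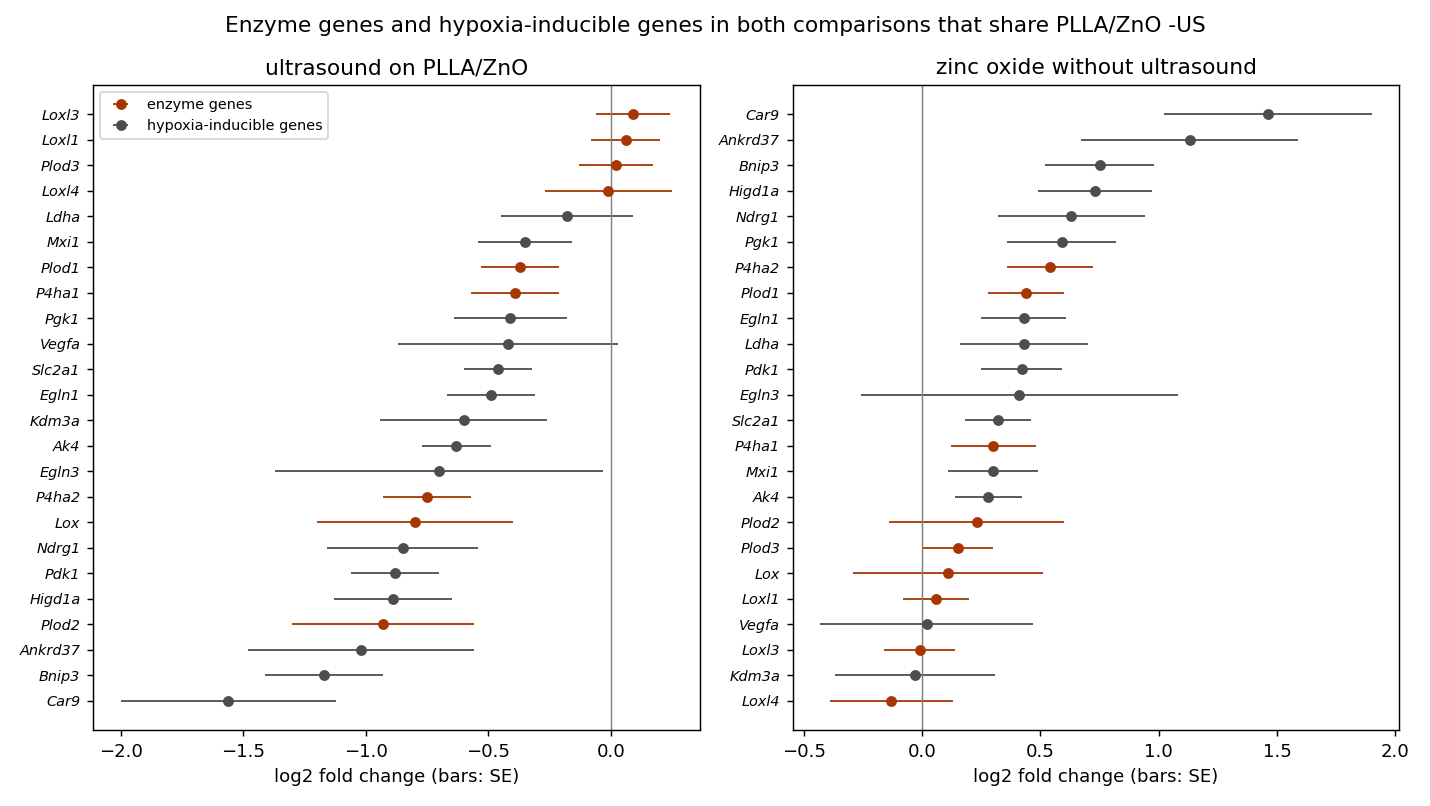
Log2 fold changes (x axes) with bars for 1 SE of the 9 tested enzymes (red-brown) and 15 HIF targets (grey), sorted by value in each panel, for ultrasound on PLLA/ZnO (left) and zinc oxide without ultrasound (right), which share the PLLA/ZnO -US libraries. All 15 HIF targets lie below 0 on the left and 14 above 0 on the right, with P4ha2 at -0.75 and 0.54 among them.

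With ultrasound present, mean differences by zinc oxide were small for most enzymes. The 9 enzymes were all lower in PLLA/ZnO +US than in PLLA +US, from -0.38 for Lox to -0.03. Lox and Plod2 rested in part on PLLA/ZnO +US replicate 3: without it Lox was at -0.07 and Plod2 at -0.06. Without all 4 libraries with reduced Y-linked reads, which include PLLA +US replicate 3, Lox was at -0.25 and Plod2 at -0.18. Without PLLA +US replicate 3, Loxl1, Loxl3 and Plod1 changed sign, at 0.04 to 0.05. Of all tested genes 53.8% were lower. In 0 of the 9 enzymes were the groups separate, against 7.93% of tested genes, and the median was -0.08, against -0.02 over all genes. edgeR called 0 of 9, against 0% of all genes, and 0 had an unadjusted p under 0.05, against 1.27%. DESeq2, limma and voom with library weights also called 0, where the last called 0.067% of genes. Same-numbered libraries deviated together in this comparison, but replicate 3 of both groups had reduced Y-linked reads (26.1% in PLLA +US, 13.2% in PLLA/ZnO +US). That shared position alone can make deviations go together, so pairing is not established. In these pairs 8 of the 9 enzymes were lower with zinc oxide in 3 of 3, against 24.7% of tested genes, and Loxl4 in 2 of 3. With the replicate number as a block in a fit of the libraries compared, an alternative chosen after the data were seen, Lox was at -0.48 (SE 0.17) and Plod2 at -0.40 (SE 0.16), both with an adjusted p of 0.519 by edgeR. That fit called 0 of the 9 and 0 genes in all, and 1 enzyme had an unadjusted p under 0.05, against 8.25% of tested genes.

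On PLLA/ZnO@Col the ultrasound values ran in opposite directions within the lysyl oxidase family. Loxl4 had 11.5, 22.8 and 23.4 FPKM in PLLA/ZnO@Col +US libraries, against 12.6, 14.3 and 7.68 FPKM in PLLA/ZnO@Col -US libraries. The groups overlapped through replicate 1 with ultrasound (log2 fold change 0.74, SE 0.26, adjusted p = 0.525 by edgeR). Loxl3 had 16.3, 19.8 and 17.3 FPKM in PLLA/ZnO@Col +US libraries, against 14.2, 12.5 and 14.9 FPKM in PLLA/ZnO@Col -US libraries, all higher with ultrasound (0.35, SE 0.15). Loxl1 had 26.6, 34 and 32.3 FPKM in PLLA/ZnO@Col +US libraries, against 22.7, 20.7 and 27.6 FPKM in PLLA/ZnO@Col -US libraries, with overlap (0.38, SE 0.14). Lox had 104, 70.1 and 87.4 FPKM in PLLA/ZnO@Col +US libraries, against 106, 271 and 82.3 FPKM in PLLA/ZnO@Col -US libraries. Its log2 fold change of -0.79 (SE 0.40) rested on replicate 2 without ultrasound, the highest Lox value of the series: without that library it was -0.16, and that of Loxl1 was 0.25. As a share of the family sum, Lox averaged 56% ± 8.99 with ultrasound on this membrane and 71.8% ± 11.9 without it (SD, n = 3 each).

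Among the hydroxylases on the same membrane, Plod2 had 10.7, 3.66 and 4.14 FPKM in PLLA/ZnO@Col +US libraries, against 10.4, 11.6 and 9.52 FPKM in PLLA/ZnO@Col -US libraries. Replicates 2 and 3 with ultrasound were low and replicate 1 was level with the other group (log2 fold change -0.75, SE 0.37), and the value was -1.40 without replicate 1 with ultrasound and -0.48 without replicate 2 with ultrasound. Plod1 had 11.7, 11.5 and 11.6 FPKM in PLLA/ZnO@Col +US libraries, against 8.83, 9.8 and 11 FPKM in PLLA/ZnO@Col -US libraries, without overlap (0.24, SE 0.16). Plod3 had 39.1, 46.9 and 43.8 FPKM in PLLA/ZnO@Col +US libraries, against 32.2, 32.5 and 39.9 FPKM in PLLA/ZnO@Col -US libraries, with a slight overlap (0.31, SE 0.15). P4ha1 had 102, 57.1 and 68.7 FPKM in PLLA/ZnO@Col +US libraries, against 84.8, 73.5 and 92.8 FPKM in PLLA/ZnO@Col -US libraries (-0.14, SE 0.18). The P4ha1 groups overlapped widely, and so did those of P4ha2 (0.07, SE 0.18). edgeR called 0 of 9, against 0% of all genes, and 3 had an unadjusted p under 0.05, against 8.18%. DESeq2 and limma called 0, and voom with library weights called 6, where it called 28.2% of genes. Libraries lay wholly higher with ultrasound for 2 enzymes, against 5.28% of tested genes, and wholly lower for 0, against 5.74%. The median over the 9 was 0.24, against -0.03 over all genes.

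Several of these values rested on the libraries that stood apart. Without the 3 lacking Y-linked reads, ultrasound on PLLA/ZnO@Col gave -1.74 for Lox, -1.53 for Plod2 and 0.72 for Loxl1. It gave 0.61 for Loxl3, 0.52 for Plod3 and again 0.74 for Loxl4. That fit set replicates 2 and 3 with ultrasound, both with reduced Y-linked reads, against replicate 2 without it, the highest Lox value of the series. Without the 4 libraries with reduced Y-linked reads, replicate 1 alone was left with ultrasound on this membrane. Plod2 and P4ha1 then changed sign, at 0.05 and 0.30. Loxl4 was at 0.02, Loxl1 at 0.18, Plod3 at 0.18, Loxl3 at 0.25 and Lox at -0.53. Over all groups, those 4 libraries held the 4 lowest Plod2 values of the series, at 3.25 to 6.3 FPKM, and Lox values of 50.5 to 105 FPKM. The 3 libraries that lacked Y-linked reads were the 3 lowest for Loxl4 (7.68, 11.5 and 12.6 FPKM), with the next at 13.1 FPKM. Summed over 5 of 5 macrophage markers, levels were 0.743 to 9.32 FPKM in PLLA/ZnO@Col +US, 1.5 to 9 in PLLA/ZnO@Col -US, 0.51 to 7.31 in PLLA/ZnO +US, 1.01 to 7.72 in PLLA/ZnO -US, 1.57 to 6.97 in PLLA +US and 7.12 to 8.61 in PLLA -US. Ptprc and Adgre1 stayed at or below 0.0935 FPKM in all 18 libraries, while Csf1r lay between 0.053 and 1.68 FPKM, Itgam between 0 and 1.64 FPKM and Cd68, which many cell types express, between 0.381 and 5.97 FPKM. The 4 libraries with reduced Y-linked reads had macrophage sums of 0.51 to 1.57 FPKM and mitochondrial shares of 1.57% to 1.87% of counts. Mitochondrial shares elsewhere were 1.83% to 4.54%. Macrophage sums were also low in PLLA/ZnO -US replicate 3 (1.01 FPKM) and PLLA/ZnO@Col -US replicate 2 (1.5 FPKM), with Y-linked reads at 80.1% and 104%. In these bulk libraries fewer cells of one kind cannot be told apart from less RNA per cell, and the part of the Y-linked difference in the enzyme values was not tested.

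**Figure D4:**
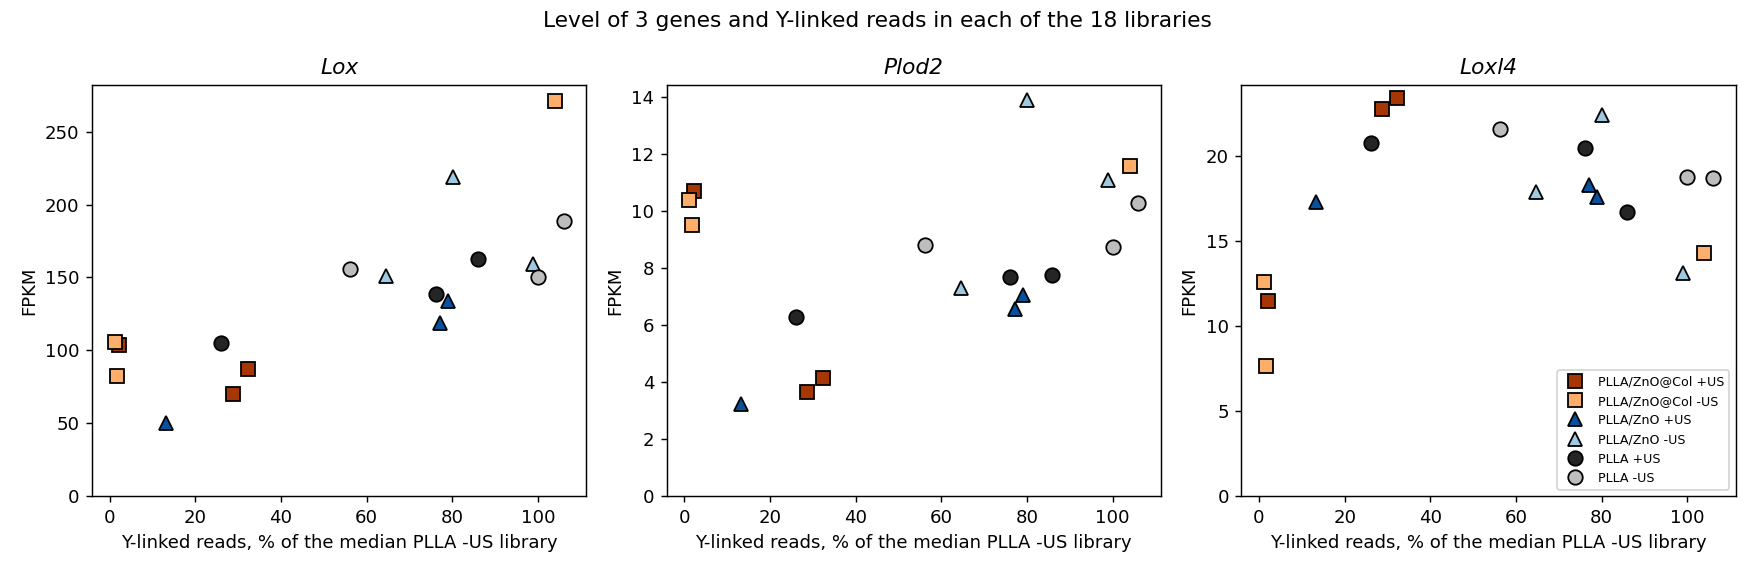
FPKM of Lox, Plod2 and Loxl4 (y axes) against Y-linked reads as a percent of the median PLLA -US library (x axes), with 1 point per library and symbols by group. The 4 libraries at 13.2% to 32.3% carry the 4 lowest Plod2 values (3.25 to 6.3 FPKM), and the 3 libraries near 0% carry the 3 lowest Loxl4 values (7.68 to 12.6 FPKM).

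On PLLA alone, no enzyme passed the test for ultrasound by any of the tools. Plod2 had 7.7, 7.78 and 6.3 FPKM in PLLA +US libraries, against 10.3, 8.81 and 8.73 FPKM in PLLA -US libraries, all lower with ultrasound (log2 fold change -0.38, SE 0.37). Plod3 had 36.9, 38.7 and 48.7 FPKM in PLLA +US libraries, against 30.6, 36.7 and 34.2 FPKM in PLLA -US libraries, all higher with ultrasound (0.25, SE 0.15). Lox was at -0.31 (SE 0.40), with 139, 163 and 105 FPKM in PLLA +US libraries, against 189, 156 and 150 FPKM in PLLA -US libraries, and the groups overlapped. PLLA +US replicate 3 had the lowest Lox and Plod2 values with ultrasound, and without the libraries with reduced Y-linked reads Lox was at -0.13 and Plod2 at -0.26. Groups were separate upward for 1 enzyme, against 4.99% of tested genes, and downward for 1, against 5.8%. The other 6 lay between -0.06 and 0.15, and adjusted p-values of the 9 by edgeR were 0.978 to 0.981. edgeR called 0 of 9, against 0% of all genes, and 0 had an unadjusted p under 0.05, against 0.436%. DESeq2, limma and voom with library weights called 0, where the last called 0.00838% of genes. Across the membranes, Lox and Plod2 were lower with ultrasound in mean level on all 3, and edgeR called neither on any of them.

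The difference of the ultrasound change between membranes was tested directly. For P4ha2 the change on PLLA/ZnO@Col exceeded that on PLLA/ZnO by 0.82 (SE 0.26) on the log2 scale, and for Plod1 by 0.61 (SE 0.22), with an adjusted p of 0.999 by edgeR for both. For P4ha2 the change on PLLA/ZnO minus that on PLLA was -0.70 (SE 0.26, adjusted p = 1 by edgeR). In each of these differences edgeR called 0 of the 9 enzymes, against 0% of all genes, and 2 had an unadjusted p under 0.05, against 2.2% of genes for PLLA/ZnO@Col minus PLLA/ZnO and 0.385% for PLLA/ZnO minus PLLA. DESeq2 and limma called 0 in both, while voom with library weights called 7 for PLLA/ZnO@Col minus PLLA/ZnO, where it called 30.8% of genes, and 0 for PLLA/ZnO minus PLLA. A test for any difference over the 6 groups also called 0, against 0% of all genes, with P4ha2 lowest at an adjusted p of 0.336 by edgeR. It had 1 enzyme at an unadjusted p under 0.05, against 10.8% of genes, and DESeq2 and limma called 0, while voom with library weights called all 9, where it called 81% of genes.

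**Figure D5:**
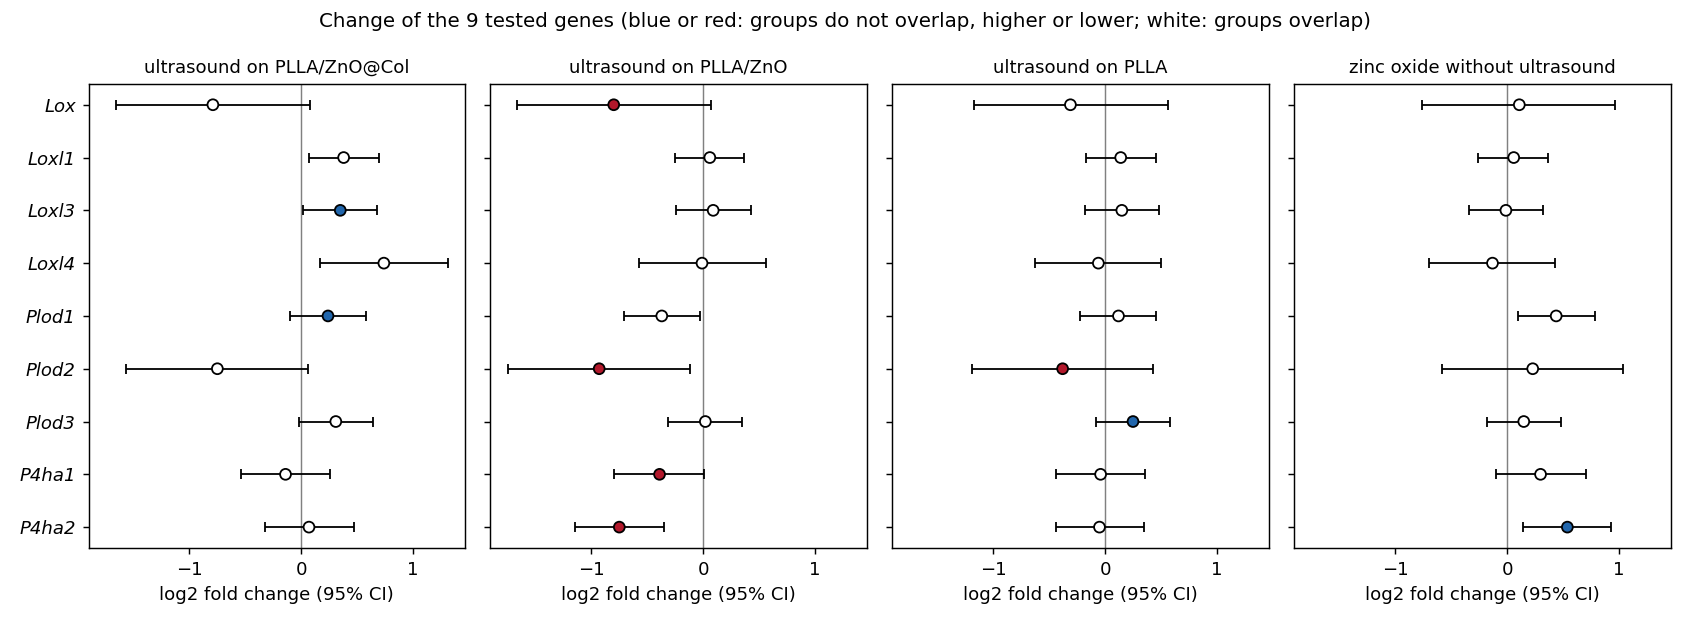
Log2 fold changes (x axes) with bars for 95% intervals of the 9 tested enzymes (y axis) in 4 comparisons. Blue and red points mark enzymes whose groups did not overlap, higher and lower: on PLLA/ZnO the 4 red points are Lox, Plod2, P4ha1 and P4ha2 (-0.75), and no value passed adjustment by edgeR.

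Collagen on the membrane was set against PLLA/ZnO without and with ultrasound. Without ultrasound 8 of 9 enzymes were lower, against 45% of tested genes, with a median of -0.17 against 0.04 over all genes. Groups were separate for 0 of 9, against 11.4% of tested genes. P4ha2 was at -0.54 (SE 0.18, adjusted p = 0.214 by edgeR), Loxl4 at -0.60 (SE 0.26, adjusted p = 0.341 by edgeR) and Plod1 at -0.39 (SE 0.16, adjusted p = 0.305 by edgeR). The P4ha2 libraries were 15.4, 17 and 22.6 FPKM in PLLA/ZnO@Col -US, against 22.1, 24.9 and 34.8 FPKM in PLLA/ZnO -US, and overlapped. Without PLLA/ZnO -US replicate 3 P4ha2 was at -0.32, Plod1 at -0.21 and Loxl4 at -0.39, and without PLLA/ZnO@Col -US replicate 3 Loxl4 was at -0.38. Lox ranged from -0.84 without PLLA/ZnO@Col -US replicate 2 to 0.12 without PLLA/ZnO@Col -US replicate 3. Without the 3 lacking Y-linked reads P4ha2 was at -0.7, Plod1 at -0.46 and Loxl4 at -0.35, and Lox was at 0.6 in place of -0.19. edgeR called 0 of 9, against 0% of all genes, and 3 had an unadjusted p under 0.05, against 12.9%. DESeq2 and limma called 0 and voom with library weights called 4, where it called 33.4%. With ultrasound present, 8 of 9 were higher, against 50.4% of tested genes, and 1 had separate groups with collagen higher, against 10.2%, with a median of 0.21 against 0 over all genes. Loxl3 had 16.3, 19.8 and 17.3 FPKM in PLLA/ZnO@Col +US, against 13.1, 12.7 and 16 FPKM in PLLA/ZnO +US, without overlap (0.39, SE 0.15, adjusted p = 0.457 by edgeR). Without the 4 libraries with reduced Y-linked reads Loxl3 was again at 0.39, P4ha1 was at 0.67 in place of 0.21, Plod2 at 0.71 in place of 0.17 and Loxl4 at -0.59 in place of 0.15. edgeR called 0 of 9, against 0% of all genes, and 1 had an unadjusted p under 0.05, against 9.43%. DESeq2 and limma called 0, and voom with library weights called 7, where it called 51%. Both comparisons share libraries with the ultrasound comparisons.

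No gene of the partners of these enzymes passed the edgeR test. The list of 32 partners (other prolyl hydroxylases, glycosyltransferases, chaperones, propeptide processing, export, copper supply and fibril scaffold genes) had 26 tested genes. In every comparison edgeR called 0 of them, against 0% of all genes. Per comparison between groups 0 to 4 had an unadjusted p under 0.05, against 0.436% to 12.9% of tested genes. The 4 were for collagen with ultrasound, against 9.43%. In the comparisons between groups DESeq2 called 1, for collagen without ultrasound, where it called 407 of 11936 genes, and limma called 0. The fit by voom with library weights called 0 to 18, the 18 for collagen with ultrasound, where it called 51% of all genes. For any difference over the 6 groups DESeq2 called 1, where it called 506 of 11936 genes. There voom with library weights called 21, where it called 81% of genes. For ultrasound on PLLA/ZnO@Col 18 of 26 were higher and 8 lower, against 47.1% of tested genes higher, with a median of 0.18, and 2 had an unadjusted p under 0.05, against 8.18%. Adamts2, which removes the N-propeptide of procollagen, averaged 4.57 ± 2.13 FPKM with ultrasound and 1.98 ± 0.565 FPKM without it (SD, n = 3 each). Its log2 fold change was 1.21 (SE 0.32, adjusted p = 0.525 by edgeR). The groups overlapped, at 2.14 to 6.11 FPKM with ultrasound and 1.56 to 2.62 FPKM without it. For collagen without ultrasound Adamts2 was at -1.31 (SE 0.32, adjusted p = 0.115 by edgeR). On PLLA/ZnO the partners split 15 higher and 11 lower with ultrasound, with a median of 0.02.

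Of 8 substrate genes, collagen chains and elastin, 7 were tested. These 7 were higher with ultrasound on PLLA/ZnO@Col, with a median of 0.35, and 3 had an unadjusted p under 0.05, against 8.18% of tested genes. Over all tested genes 47.1% were higher there. Col1a1, the main chain of bone collagen, was at 0.48 and Col5a1, which nucleates fibrils, at 0.52, with an adjusted p of 0.525 by edgeR for both. Col1a1 had 1110, 1080 and 1050 FPKM in PLLA/ZnO@Col +US libraries, against 906, 500 and 910 FPKM in PLLA/ZnO@Col -US libraries, without overlap. Replicate 2 without ultrasound was the lowest Col1a1 value of the series. In the same order Col1a2 had 747, 502 and 487 FPKM, against 621, 266 and 623 FPKM, with overlap. Substrate values without that library are not given here. On PLLA/ZnO 3 of 7 were higher and 4 lower, with a median of -0.1. edgeR, DESeq2 and limma called 0 of the 7 in any comparison, while voom with library weights called 2 for ultrasound on PLLA/ZnO@Col, 2 for collagen without ultrasound, 3 for collagen with ultrasound, 3 for PLLA/ZnO@Col minus PLLA/ZnO and 4 for any difference over the 6 groups. In these comparisons it called 28.2%, 33.4%, 51%, 30.8% and 81% of all genes.

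Genes with group patterns most like those of the most variable enzymes were found by the root mean square difference of centred group means of log2(FPKM + 1) over the 6 groups, among 11927 genes. For Lox the nearest was Rab5a, a GTPase of early endosomes, at 0.065 on the log2 scale. Its means were 5.36 FPKM in PLLA/ZnO@Col +US, 9.97 in PLLA/ZnO@Col -US, 7.55 in PLLA/ZnO +US, 11.5 in PLLA/ZnO -US, 9.46 in PLLA +US and 11.6 in PLLA -US. Tmem30a, Rsrp1, Crk and Samd9l followed at 0.066 to 0.072. For Plod2 the nearest was Zfp52 at 0.087, then Nampt, an enzyme of NAD salvage, Fnip1, Zfp292 and Smc4, at 0.092 to 0.099. These genes were picked for their likeness, so no test applies.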

How the data were processed

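Polyadenylated RNA of MC3T3-E1 cells was sequenced by Illumina protocols, per the labels' protocols. Reads were trimmed with cutadapt 1.9, checked with FastQC and tied to GRCm38, per the submitters' processing notes. No source used here names the aligner, the counter or the use of strand. Whole-number gene counts, not normalized, and FPKM values were deposited by the authors in 1 table, per the file headers. The length implied by count and FPKM varied over libraries by a median of 1.43% (coefficient of variation). The members and the gene lists were chosen with earlier results of these data known.

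Libraries were grouped by their titles and treatment labels. Genes with at least 1 FPKM in at least 3 libraries (11936) were tested on counts with edgeR 4.0.16 in R 4.3.3 (TMM, quasi-likelihood F-test, 18 libraries, 12 residual degrees of freedom, two-sided). Benjamini-Hochberg adjustment ran over all tested genes within each comparison. The common biological coefficient of variation was 0.28. At 48307580 to 78039543 counts per library the spread between libraries limited precision, except for Loxl2 with 5 to 33 counts. All pairs of libraries differed by more than sampling noise (lowest chi-square per degree of freedom 15.85). Alternatives were DESeq2 1.42.0, limma 3.58.1 on log2(FPKM + 1), voom with library weights, other filters and scalings, a replicate block, and libraries left out. The test was checked on simulated data for ultrasound on PLLA alone. Those data held no libraries that stood apart, so the check does not cover that feature of these libraries.

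All 10 enzymes were named. Of each other list, the rule took genes past the threshold and otherwise the 3 with the smallest unadjusted p per comparison, plus a fixed panel, and the text leaves some out for length. Likeness was sought for the 2 enzymes with the widest range of group means.

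Same-numbered replicates deviated together (correlations 0.58, 0.64 and 0.79) only for zinc oxide with ultrasound. There replicate 3 of both groups had reduced Y-linked reads, so the correlations do not establish that the numbers pair the libraries. In the other comparisons the correlations ran from -0.64 to 0.41. Whether the numbers pair the libraries there is not established either.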

Additional observations from a re-analysis of the deposited data

How the results depend on the processing

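Counts of called genes depended on the tool and on a few libraries. DESeq2 called 5 genes for ultrasound on PLLA/ZnO, 3 on PLLA/ZnO@Col, 1 for zinc oxide without ultrasound, 2 with it, 407 for collagen without ultrasound, 47 with it and 506 for any difference over the 6 groups, against 0 by edgeR in each. limma on log2(FPKM + 0.1) called 1 for collagen without ultrasound. voom with library weights, which ranged from 0.108 to 5.51, called 1 gene for ultrasound on PLLA, 568 on PLLA/ZnO, 3370 on PLLA/ZnO@Col, 1192 for zinc oxide without ultrasound, 8 with it, 3982 for collagen without ultrasound, 6086 with it, 3676 for PLLA/ZnO@Col minus PLLA/ZnO and 9663 for any difference. Over the comparisons between groups and all settings, 22 enzyme values were called, all by this fit, which gave 63. Without the libraries lacking Y-linked reads edgeR called 111 genes for ultrasound on PLLA/ZnO@Col, 166 for collagen without ultrasound, 13 for PLLA/ZnO@Col minus PLLA/ZnO and 25 for any difference. Without the 4 libraries with reduced Y-linked reads, a setting chosen after the data were seen, it called 83 for collagen without ultrasound, 1 with it and 6 for any difference, and Plod2 for ultrasound on PLLA/ZnO@Col turned to 0.05. The cause of these shifts was not tested.

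With each library left out in turn, edgeR called 0 to 1 genes for ultrasound on PLLA/ZnO, 0 to 38 on PLLA/ZnO@Col, 0 to 1 for zinc oxide with ultrasound, 0 to 1039 for collagen without ultrasound, 0 to 1 for both differences, 0 to 211 for any difference, and 0 elsewhere. The 1039 and 211 came without PLLA/ZnO@Col -US replicate 2. Without replicate 3 of that group collagen without ultrasound had 18. Without PLLA/ZnO@Col +US replicate 1 it had 95, ultrasound on PLLA/ZnO@Col had 38 and any difference had 7, and without PLLA/ZnO +US replicate 3 collagen without ultrasound had 41. A single gene came without PLLA/ZnO +US replicate 2. A fit with the replicate number as a block called 0 genes in every comparison and changed no call, and so did one with only the libraries compared, which was chosen after the data were seen. Depth limits Loxl2 alone.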
